A study of Mus musculus with 6 samples.

Results

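The genes described here are 79 developmental transcription factor genes of the homeobox, Pax and POU families, measured in 6 mouse hippocampus samples. The study behind them concerns overexpression of HuD, an RNA-binding protein of neurons whose gene is Elavl4. They were chosen by name, as the genes of the Hox, Pax, Dlx, sine oculis (symbols Six2 to Six6), Emx, Otx, Lhx, Nkx, Meis, Pbx and Pou series on the array, with Lhx6 and Pou3f1 left out. They are 79 of the 8251 genes that a probe set with a single gene symbol measured. No gene of the Emx or Otx series met the rule. Of the 79, 4 matched by name only: Dlx1as, Dlx6os2 and Hoxa11os are antisense or opposite-strand RNAs of homeobox loci, and Pou2af1 is a coactivator of POU factors in B cells. A gene with several probe sets was represented by the probe set with the highest mean over the 6 arrays, and 15 of the 79 genes had more than 1.

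Each sample is total RNA of hippocampus, hybridised to an oligonucleotide array of its own. No label says which samples came from overexpressing mice and which from controls, so all 6 were left without a group, no genotype was read from the values, and no test between groups was made. The promoter of the transgene, the strain and age of the mice, and whether animals were pooled are not stated in the labels. Sample numbers are those of the titles. A further code in the titles sets sample 2 apart (2, against 1 elsewhere) and is not explained.

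Homeobox genes encode transcription factors that bind DNA through a homeodomain, a short helical domain that inserts a recognition helix into the major groove. In the embryo they set the position and identity of cells: Hox genes along the body axis from the hindbrain backwards, and Emx, Otx, Dlx, Lhx, sine oculis and Pax genes in parts of the forebrain, eye and neural tube. POU factors pair a homeodomain with a second DNA-binding domain, and Pax factors carry a paired domain. In the adult forebrain some of them stay active in defined neurons, progenitors and glia, while the forebrain lies in front of the Hox expression domains.

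The values are deposited signal intensities per probe set, and the array median, taken without the control probe sets, lay between 59.9 and 63.3 on the 6 arrays. For every other number a signal was divided by the median of its array, values under 0.2 of the median were set to that floor, and log2 was taken, so that a level of 0 is the array median. The range of a gene is its highest minus its lowest level over the 6 samples. Detection calls were not used here, so a value under the array median is not shown to be above background, and it is not shown to be absent either. Probe sets differ in how brightly they bind, so single genes are not ranked against each other by level, and a position above or under the array median is a property of the probe set as well as of the gene. With single arrays and no labelled groups, differences between samples have no replicate check, and precision is limited by how few arrays there are. In tissue, fewer cells of a type and less RNA per cell cannot be told apart. Of 9 genes fixed as markers of hippocampal neurons, 8 had a median above the array median. The exception was Prox1, the homeobox factor of dentate granule neurons, with signals from 26.9 to 69.6 and 2 of 6 samples above the array median. A gene in use in hippocampus can thus stand under the array median here.

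Most of the developmental factor genes were dim in every sample. The median over the 6 samples lay above the array median for 12 of the 79 (15.2%), against 58.6% of all 8251 genes. These 12 were Pbx2, Pbx3 and Meis3, Pou2f3, Pou3f3 and Pou6f1, Nkx2-2 and Nkx6-2, and Hoxa4, Hoxb6, Hoxb8 and Hoxd8. In 6 of them (Hoxa4, Hoxb8, Pbx2, Pou2f3, Pou3f3 and Pou6f1) all 6 samples lay above the array median, which is 7.59% of the 79, against 53.6% of all genes. A further 7 genes (8.86%) passed it in 1 or 2 samples, with the median not above it, as 5.03% of all genes did in up to 3 samples. The other 60 genes (75.9%) stayed under it in all 6 samples, against 36.3% of all genes. All 6 samples of 19 genes were at the floor, which is 24.1% of the 79 genes and 8.81% of all genes. Around the array median the genes were close together: Pbx3 lay just above it with a median level of 0.04 and Hoxb6 with 0.13, and Dlx1 lay just under it with -0.04 and Hoxa6 with -0.22.

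**Figure D1:**
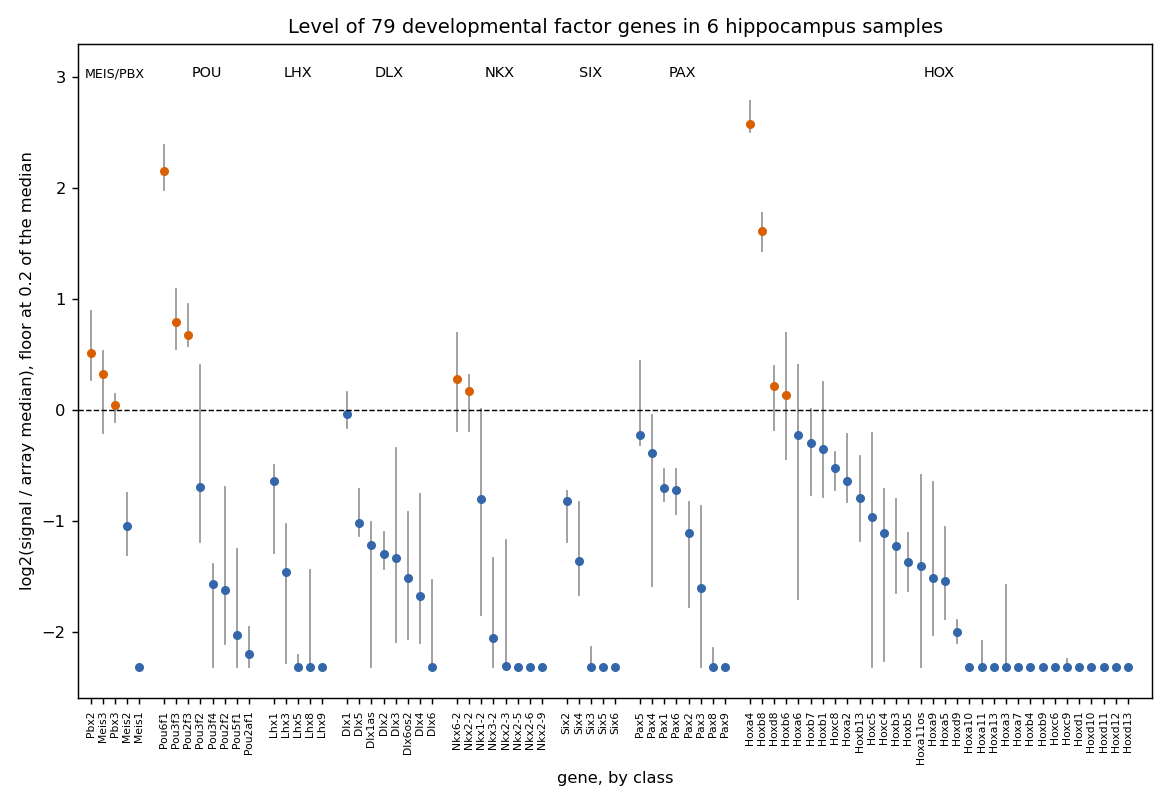
Median level (dots) and lowest to highest sample (grey lines) of the 79 genes over the 6 samples, as log2 of signal over the array median with a floor at 0.2 of that median; classes run along the x axis and the dashed line is the array median. The 12 orange genes have a median above the line, 3 of them by more than 1, and the LHX and DLX classes, the sine oculis genes (Six2 to Six6) and the PAX class have none.

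Among the MEIS and PBX genes, which encode the cofactors that bind DNA together with Hox proteins and sharpen their choice of site, 3 of 5 had a median above the array median. Pbx2 had signals of 85.4, 94.4, 111, 86.5, 76.0 and 93.6 in samples 1 to 6. All 6 samples lay above the array median, with sample 3 highest and sample 5 lowest and a range of 0.62 on the log2 scale. Pbx3, known in the brain from limbic and olfactory neurons, had signals of 66.0, 67.9, 56.7, 63.8, 58.4 and 67.8. Its samples straddled the array median and spanned a range of only 0.26. Meis3 had signals of 74.3, 81.0, 86.6, 86.3, 54.6 and 61.7, with samples 5 and 6 low and the other samples above the array median, and a range of 0.74. The remaining pair, Meis1 and Meis2, lay under the array median in every sample, Meis1 between 0.754 and 3.83 and Meis2 between 24.2 and 37.4. Meis2 is known as a factor of striatal, olfactory and thalamic cells.

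The POU genes also had 3 members above the array median, of 8. Pou6f1 (Brn-5), a POU factor of brain and spinal cord, had signals of 275, 278, 313, 250.1, 304 and 252 in samples 1 to 6. Samples 3 and 5 were high, samples 4 and 6 low, and the range was 0.40, close to the 0.40 median range of all genes above the array median. Pou3f3 (Brn-1), which acts in the birth and migration of forebrain neurons and in kidney, had signals of 106, 111, 87.5, 135, 112 and 96.3. Sample 4 stood highest and sample 3 lowest, with a range of 0.54 that was 0.30 without sample 4. Pou2f3 is known as the factor of skin keratinocytes and of chemosensory tuft cells. Its signals were 122, 91.6, 95.6, 100.1, 102 and 100.2. Sample 1 was above the other 5 samples, which lay within 0.12 of each other on the log2 scale, and the range over all 6 was 0.38.

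Pou3f2 (Brn-2), the close relative of Pou3f3 in forebrain neurons, was above the array median in 1 sample. Its signal was 83.5 in sample 5, against 37.2, 26.9, 55.5, 38.6 and 39.4 in samples 1, 2, 3, 4 and 6. Pou3f4, Pou2f2 (Oct-2, known from B cells), Pou5f1 (Oct4, the pluripotency factor) and Pou2af1 never reached the array median, with signals between 4.24 and 37.9.

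The 5 LIM-homeodomain genes of the set, which leaves out Lhx6, were under the array median in every sample. They were Lhx1 and Lhx5, known from Cajal-Retzius cells and their origins, Lhx3 of motor neurons and pituitary, Lhx8 of basal forebrain cholinergic neurons, and Lhx9. Lhx1, whose probe set had the highest mean of these, gave 40.5, 37.6, 42.4, 41.8, 25.9 and 40.1 in samples 1 to 6. Sample 5 lay apart from the others, which spanned 0.21 on the log2 scale without it, against 0.79 with it. Lhx5 was between 4.08 and 13.3. Of the 2 measured Cajal-Retzius markers that are not LIM genes, Reln was above the array median, with a range of 0.81. The other, Ebf3, stayed under it in every sample, with signals from 48.2 to 62.0.

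The DLX genes, which direct the making of forebrain GABAergic neurons, had no median above the array median among 8 members. Dlx1, which is retained in some adult interneurons, had a median just under it, with signals of 61.5, 59.2, 60.2, 56.5, 70.5 and 59.0. Samples 3 and 5 lay above the array median, sample 3 barely, and the range was 0.32. Dlx2 had signals of 23.3 to 29.2, Dlx5 of 27.8 to 38.6 and Dlx6 of 3.34 to 20.6. With Dlx3, Dlx4 and the RNAs Dlx1as and Dlx6os2, the 7 genes other than Dlx1 had signals between 3.34 and 47.2. By contrast, 8 of 9 interneuron markers outside this family had a median above the array median. The score of that list, which is the median deviation of its genes from their own medians, was 0.02, -0.04, 0.17, -0.19, -0.00 (just under 0) and -0.02 in samples 1 to 6. The score was highest in sample 3, whereas Dlx1 was highest in sample 5. The genes of the list differed. By level, Gad1, Npy, Sst, Pvalb, Lhx6 and Calb2 were highest in sample 3 and Slc32a1 in sample 1. Gad2, with the widest range of the list at 1.02, was highest in sample 5, as Dlx1 was.

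Among the NKX genes, the members above the array median were Nkx6-2 and Nkx2-2, both known from the oligodendrocyte lineage. Nkx6-2 (also called Gtx) had signals of 55.0, 68.6, 96.6, 94.8, 82.7 and 65.6 in samples 1 to 6. Samples 3, 4 and 5 were high and samples 1, 2 and 6 low. The range was 0.88, or 1.84-fold. If lower values are raised to the array median it is 1.61-fold. Oligodendrocyte markers outside the family (7 of 8 above the array median) had list scores of -0.28, -0.20, 0.13, 0.18, 0.14 and -0.06 in the same samples. By list score the high samples were the same 3 as those of Nkx6-2, and sample 1 was lowest in both. Single markers differed. Mbp, Mag, Cldn11 and Ugt8a were lowest in sample 1, but Mog, Mobp and Mal in sample 2. Mobp was highest in sample 6 and the others in sample 3, 4 or 5. Mbp and Ugt8a also had more signal in sample 6 than in sample 3. By score the astrocyte list was lowest in sample 1 too, at -0.40, and its other scores lay between 0.00 and 0.05. Here too the genes differed. Gfap and Gja1 were lowest in sample 1, but Aqp4 and Slc1a2 in sample 3 and Fgfr3, with a range of 2.34, in sample 6. By score the hippocampal neuron list was likewise lowest in sample 1, at -0.36, and otherwise between -0.04 and 0.07. Its genes were split. Neurod2, Neurod6, Nrgn and Spock1 were lowest in sample 1, but Wfs1, Zbtb20 and Camk2a in sample 3 and Calb1 in sample 5. Camk2a had a signal of 275 in sample 3 and 412 in sample 1. The thalamus and habenula list had scores of -0.32, -0.09, 0.12, -0.09, 0.19 and -0.01, with samples 3 and 5 high by score and sample 4 not. The 4 genes behind that score were split over sample 4. Tcf7l2 and Calb2 were lowest in it, whereas Lef1 was highest in it. Prkcd was high in samples 3, 4 and 5, as Nkx6-2 was. By score the meninges and fibroblast list split the samples the other way from Nkx6-2, at 0.24, 0.32, -0.17, -0.15, -0.20 and 0.27, low in samples 3, 4 and 5. Not all its genes did. Igf2 had more signal in sample 4 (575) than in sample 1 (471), and Col1a2 was lowest in sample 1. The 3 choroid plexus markers above the array median gave scores of -1.84, -1.03, -0.55, 0.59, 0.55 and 1.00, highest in sample 6, where Nkx6-2 was low. Of the measured markers not above it, Kl was also highest in sample 6. Aqp1 was highest in sample 1 and Cldn2 in sample 4, both under the array median in every sample. Whether the share of oligodendrocytes, of meninges or of neighbouring tissue in a sample takes part in the pattern of Nkx6-2 was not tested.

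**Figure D2:**
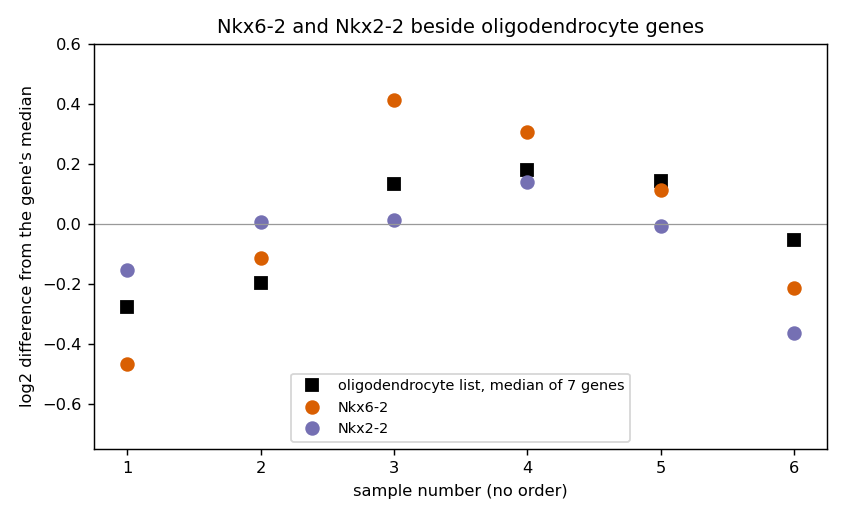
Difference of Nkx6-2 and Nkx2-2 from their own median over the 6 samples (log2, circles), beside the median of the same difference over 7 oligodendrocyte genes (squares); samples carry no order. Samples 3, 4 and 5 are the high samples for Nkx6-2 and for the list, with scores of 0.13, 0.18 and 0.14, and Nkx2-2 is nearly flat but for samples 1, 4 and 6.

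Nkx2-2, which acts in the specification of ventral neural progenitors and in the differentiation of oligodendrocytes, had signals of 63.7, 69.5, 68.2, 78.6, 70.9 and 55.0. Sample 4 was highest and sample 6 lowest, and the range was 0.50. It shared with the oligodendrocyte list the highest sample, but sample 6 rather than sample 1 was lowest. The other 6 NKX genes, among them Nkx2-5 of the heart and Nkx3-2 of skeleton and gut, had signals between 3.17 and 60.2, and of these only Nkx1-2 passed the array median, in sample 3. Nkx2-3, Nkx2-6 and Nkx2-9 were the rest.

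Neither the sine oculis nor the PAX genes had a median above the array median. The 5 sine oculis genes, factors of eye, muscle and kidney development, lay under it throughout. Six2, a factor of kidney progenitors, had signals of 32.4, 35.5, 26.2, 35.7, 35.7 and 37.9, with sample 3 low and a range of 0.47. Six3 and Six6, known from forebrain and eye, lay between 2.25 and 14.4, and all 5, with Six4 and Six5, between 2.25 and 37.9. Of the 8 PAX genes, 7 (Pax1, Pax2, Pax3, Pax4, Pax6, Pax8 and Pax9) stayed under the array median in every sample, with signals up to 61.04. Pax5, a factor of B cells and of the midbrain-hindbrain boundary, had signals of 58.4, 50.7, 52.5, 51.0, 85.4 and 52.6, so that sample 5 alone was above the array median. Without sample 5 its range was 0.21, against 0.75 with it. A second Pax5 probe set stayed between 6.52 and 9.87 and was at the floor in all 6 samples. Pax6, a factor of cortical progenitors and of adult dentate neurogenesis, had signals from 32.7 to 43.6.

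The HOX genes formed the largest class, with 32 members and 4 medians above the array median. These were Hoxa4, Hoxb6, Hoxb8 and Hoxd8, and each of the 4 is known for patterning trunk or neck levels of the embryo. No gene of the c cluster (Hoxc4, Hoxc5, Hoxc6, Hoxc8 and Hoxc9) was above the array median in any sample. Genes numbered 9 to 13 pattern the rear of the body and the limbs. The 13 members of that kind stayed under it in all samples, and 7 of these were at the floor throughout. They were Hoxa9, Hoxa10, Hoxa11, Hoxa11os, Hoxa13, Hoxb9, Hoxb13, Hoxc9, Hoxd9, Hoxd10, Hoxd11, Hoxd12 and Hoxd13. Of the 19 members numbered 1 to 8, 4 had a median above it and 3 more (Hoxa6, Hoxb1 and Hoxb7) passed it in 1 or 2 samples. Hoxa2, Hoxa3, Hoxa5, Hoxa7, Hoxb3, Hoxb4, Hoxb5 and Hoxd1 did not, and the 25 HOX members under it throughout had signals from 0.356 to 54.3. Hoxa6 passed it only on probe set 102580_r_at, with signals from 18.8 to 82.9. Its other probe set, 102579_f_at, gave 1.01 to 2.61 and was at the floor in all 6 samples. Hoxb6 had signals of 65.6, 68.0, 44.0, 68.7, 100.5 and 102 in samples 1 to 6. Samples 5 and 6 were high and sample 3 was low and under the array median. Its range of 1.14 made it the 1 gene of the 12 with over 2 times as much signal in its highest as in its lowest sample, and 4.20% of all genes above the array median passed that mark. Without sample 3 its range was 0.63, and it was 0.69 when lower values were raised to the array median. Hoxd8 had signals of 78.1, 80.8, 53.0, 65.6, 70.8 and 75.6, again with sample 3 lowest and the only sample under the array median.

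Hoxa4 and Hoxb8 were far above the array median, but each through a probe set of a marked kind. Hoxa4 had signals of 369, 424, 341, 360.2, 383 and 384 on probe set 97747_r_at, with sample 2 highest, sample 3 lowest and a range of 0.28. Its 3 other probe sets never reached the array median. These were 97745_at with 11.5 to 45.6, 162402_r_at with 9.02 to 22.7 and 97746_f_at with 0.548 to 1.02. Hoxb8 had signals of 209.7, 185, 172, 197, 170.4 and 215 on 96418_r_at, and 2.25 to 19.7 on its other probe set, 96417_s_at. On this array type the letter r in a probe set name marks probes that did not meet all design rules, and s and f mark probes shared with other transcripts or within a family. Probe sets with the letter r represented 2 of the 12 genes, against 3.12% of the 4838 genes above the array median. Hox transcripts were thus not shown by agreeing probe sets for either gene.

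This disagreement held for every one of the 12 genes that had more than 1 probe set. All 5 (Hoxa4, Hoxb8, Hoxd8, Pbx3 and Pou6f1) had another probe set whose median was not above the array median, as did 63.0% of the 1510 such genes on the array. For Pou6f1 the others, 99891_at and 161390_r_at, gave 34.8 to 55.7 and 18.9 to 27.6. The second Hoxd8 probe set gave 4.55 to 22.3. For Pbx3 the gap was small, with 44.0 to 67.2 and 50.0 to 69.7 on the others. The order of samples also differed: the second Pou6f1 probe set, 99891_at, was highest in sample 2 and lowest in sample 5, where the first was high. Probe set 161390_r_at was highest in sample 5, like the high value of the first there, and lowest in sample 1. The genes Pbx2, Meis3, Pou2f3, Pou3f3, Nkx2-2, Nkx6-2 and Hoxb6 rest on a single probe set each, so no such check exists for them.

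**Figure D3:**
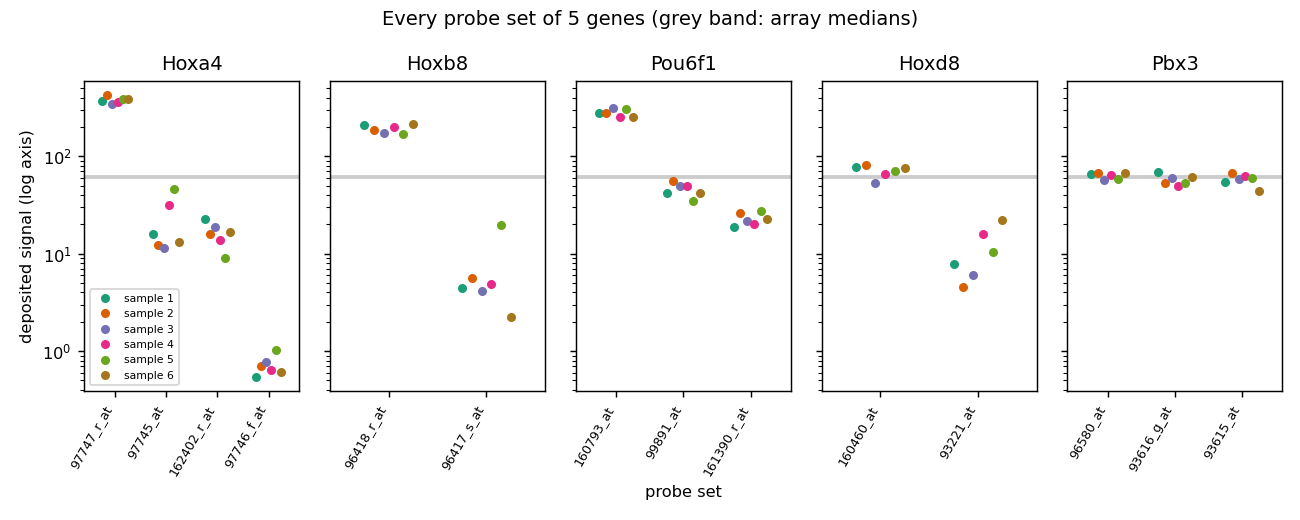
Deposited signal (log axis) of every probe set of the 5 genes above the array median that have several, with the 6 samples as coloured points and the array medians as a grey band. In Hoxa4, Hoxb8, Hoxd8 and Pou6f1 the first probe set lies above the band in all or 5 of 6 samples and the others lie under it, while the 3 Pbx3 probe sets lie around the band.

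Over the 12 genes the differences between samples were of a usual size. Their median range was 0.52, against 0.40 for the 4838 genes above the array median. The median of their levels was 0.42, against 1.66, and the range differs with the level on these arrays. Among genes with a median level between 0 and 1, the 9 developmental factors had a median range of 0.58, against 0.53 for all 1385 genes of that level. The smallest range among the 12 was 0.26 and the largest 1.14.

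**Figure D4:**
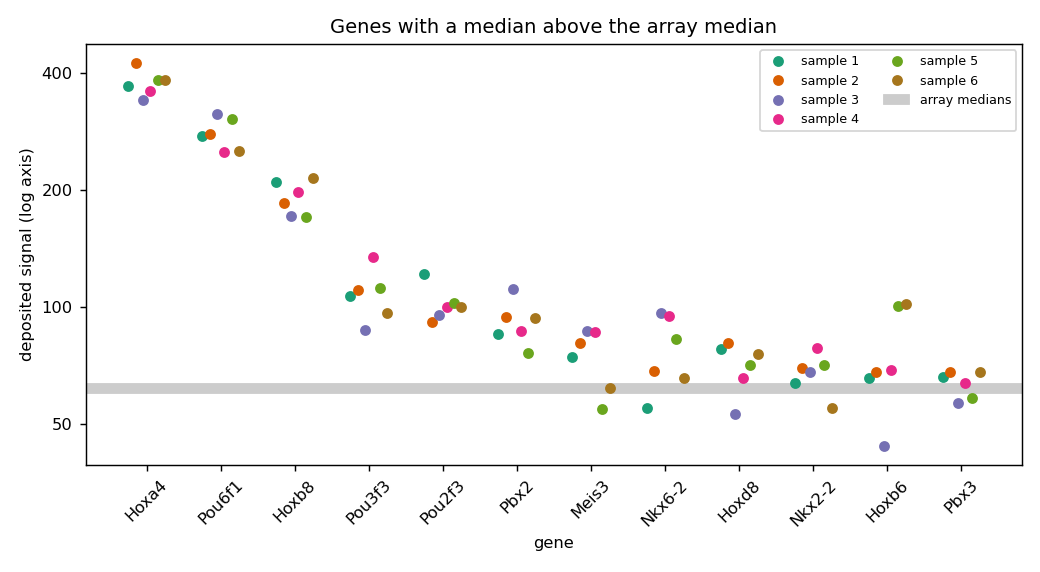
Deposited signal (log axis) of the 12 genes with a median above the array median, with a point for each sample and the array medians as a grey band. Hoxa4, Pou6f1 and Hoxb8 lie far above the band in all 6 samples, while Hoxb6 spans 44.0 in sample 3 to 102 in sample 6.

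The genes did not share a pattern over the samples. Of the 12, 4 were highest in sample 3 (Meis3, Nkx6-2, Pbx2 and Pou6f1), where 31.1% of all genes above the array median were highest. Sample 2 was highest for 3 (15.6% of all genes), samples 4 and 6 for 2 each (12.6% and 11.4%) and sample 1 for 1 (17.3%). A further 4 were lowest in sample 3 (Hoxa4, Hoxb6, Hoxd8 and Pou3f3), where 11.1% of all such genes were lowest. Sample 5 was lowest for 4 (Hoxb8, Meis3, Pbx2 and Pbx3), against 20.0% of all genes, and highest for 0 of the 12, against 12.1%. Samples 1, 2, 4 and 6 were lowest for 1 gene each, against 21.6%, 11.6%, 20.7% and 15.0% of all genes. Sample 3 also had the highest ratio of 3′ to 5′ signal for the transferrin receptor control, 3.47 against 2.54 to 3.02 in the other samples, and for pyruvate carboxylase, 3.56 against 1.57 to 2.61. The beta-actin and Gapdh ratios were highest in sample 1 (1.27 and 0.86) and not in sample 3 (1.21 and 0.82). The part of RNA quality in the values of sample 3 was not tested. Among the 7 genes that passed the array median in 1 or 2 samples only, 4 did so in sample 5 (Dlx1, Hoxb1, Pax5 and Pou3f2), and none in sample 4. Of the 415 genes of the whole array that passed it in some samples with the median not above it, 26.7% did so in sample 5 and 27.5% in sample 4.

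Homeobox genes outside the naming rule were mostly under the array median as well, and genes of proteins that work with these factors mostly above it. From a list of 75 further homeobox genes 45 were measured, and 9 (20.0%) had a median above the array median, against 58.6% of all genes. Of these 9 the widest was Tgif2, a TALE-class repressor, with signals of 112, 63.7, 60.2, 175, 81.8 and 73.5 and a fold of 2.75 between samples 4 and 3. Vax1, Zfhx3, Hopx and Satb1 ranged 1.89-fold, 1.80-fold, 1.67-fold and 1.51-fold. When lower values were raised to the array median, Vax1 ranged 1.75-fold and Zfhx3 1.34-fold. Of 18 measured partners and cofactors, 15 (83.3%) had a median above the array median, against 58.6% of all genes. None of the 15 had a range over 1, a mark that only 4.20% of all genes above the array median passed. Ldb1, the adaptor that joins LIM-homeodomain proteins, was lowest in sample 1 at 90.1 and otherwise between 141 and 176. Sox11, a partner of POU factors in young neurons, was lowest in sample 3 at 74.1 and otherwise between 105 and 142. Tle3, a corepressor, was lowest in sample 1 and ranged 1.72-fold. Eya3, a partner of sine oculis proteins, ranged 1.88-fold, or 1.54-fold on the same terms.

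Promoter sequences of 57 of the 79 genes were matched by gene identifier in the RefSeq table of mouse build GRCm38.p6, which gives 250 bases before and 50 bases after each gene's start. Counted over these 300 bases, the 57 genes held a median of 15 CG pairs, against 19 for the 6572 genes of the array with a promoter. All genes above the array median had a median of 22 and those not above it 12. The 8 developmental factors above the array median had 19.5 and the 49 not above it 15. No test was made of these differences. The POU octamer ATGCAAAT, searched on both strands, was in 0 of the 57 windows, in 1.55% of the 6572 genes and in 1.74% of all promoters. The hexamer TGACAG, bound by MEIS factors, was in 14 of the 57 (24.6%), among them Pou3f3, and in 16.7% of the 6572 genes and 19.2% of all promoters of the table. Of the 8 factors above the array median, 1 (12.5%) held it. A match of letters is a description, not a site in use.

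The 250 bases upstream of the start are shown for 4 genes that the results turn on, with every CG pair in capitals. Nkx6-2 (GRCm38.p6, chr7:139582798-139583047, minus strand) and Nkx2-2 (chr2:147186403-147186652, minus strand) are the pair known from oligodendrocytes, with 26 and 8 CG pairs in the bases shown. Pou6f1 (chr15:100599985-100600234, minus strand) is a POU gene above the array median in all 6 samples on the probe set used, but not on its others, and holds 20. Hoxb8 (chr11:96281655-96281904, plus strand) is a Hox gene whose probe sets also disagreed, and holds 12.
Nkx6-2: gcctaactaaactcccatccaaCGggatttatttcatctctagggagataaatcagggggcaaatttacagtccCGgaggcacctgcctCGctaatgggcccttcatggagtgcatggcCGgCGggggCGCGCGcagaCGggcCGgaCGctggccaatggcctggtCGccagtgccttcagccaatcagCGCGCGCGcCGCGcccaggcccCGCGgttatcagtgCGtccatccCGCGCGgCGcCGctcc
Nkx2-2: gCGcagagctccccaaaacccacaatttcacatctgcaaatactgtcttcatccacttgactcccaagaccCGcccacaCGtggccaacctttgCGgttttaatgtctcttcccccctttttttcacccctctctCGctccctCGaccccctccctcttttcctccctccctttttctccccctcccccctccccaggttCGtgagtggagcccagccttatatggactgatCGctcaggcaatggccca
Pou6f1: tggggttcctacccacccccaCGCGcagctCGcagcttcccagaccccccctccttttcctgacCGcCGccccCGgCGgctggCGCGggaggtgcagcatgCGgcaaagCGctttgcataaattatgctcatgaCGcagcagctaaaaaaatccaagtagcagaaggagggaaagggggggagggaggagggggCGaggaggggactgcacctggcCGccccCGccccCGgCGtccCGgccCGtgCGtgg
Hoxb8: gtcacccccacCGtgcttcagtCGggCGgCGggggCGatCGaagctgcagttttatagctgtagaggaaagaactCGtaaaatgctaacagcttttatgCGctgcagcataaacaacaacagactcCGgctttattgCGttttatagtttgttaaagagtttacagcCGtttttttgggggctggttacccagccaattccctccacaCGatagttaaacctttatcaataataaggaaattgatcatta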

How the data were processed

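RNA from 6 hippocampus samples was measured on arrays of 12488 probe sets, 66 of them controls. The authors' deposited table holds linear signal intensity, 1 value per probe set and array. The sources used here give neither the scanner, the summary method and the scaling nor the array's genome build. Names came from the platform annotation: 10833 had a single gene symbol and were used, 396 had several (3 of them with a symbol of these families) and 1193 had none. All 79 gene identifiers matched the RefSeq gene table (GRCm38.p6) with the same symbol.

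Python 3.11.15 with pandas 2.3.3, numpy 2.4.6 and matplotlib 3.10.9 was used. Signals were divided by the array median, floored at 0.2 of it and put on a log2 scale. The functions were tested on simulated data with 200 changed genes. No sample has a labelled group, so no test was made, and shares over all genes stand beside the main counts. All genes of the naming rule are named. Those with a median above the array median, and the gene with the highest mean in each class without any, are given per sample. The members and lists were chosen with earlier results of these data known. Alternatives were other scalings, filters, probe set rules and leaving out each sample.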

Additional observations from a re-analysis of the deposited data

Results flagged for a closer look

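For 4 of the 16 genes that the naming rule gives per sample, 1 sample lay far from the other 5, judged by its gap to the nearest sample as a share of the gene's whole range on the log2 scale (critical value 0.625 for 6 samples). Chance flags about 1 in 20 such sets, and 5.89% of all genes above the array median were marked. That share is not a like background for Dlx1, Lhx1, Pax5 and Six2, whose medians were not above it. Lhx1 and Pax5 are among the genes marked here. Pax5 stood out in sample 5 (share 0.72), with a signal of 85.4 against 50.7 to 58.4 in the others. Lhx1 stood out low in the same sample (share 0.74), with 25.9 against 37.6 to 42.4, all under the array median. Pou2f3 stood out in sample 1 (share 0.69), with 122 against 91.6 to 102. Hoxa4 stood out in sample 2 (share 0.63), with 424 against 341 to 384 on a probe set that its other 3 probe sets do not bear out. The 6 samples are not known to be replicates of a group.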

How the results depend on the processing

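No paired analysis was possible because no sample has a labelled group. The count of 12 genes above the array median was the same with no scaling, with quantile normalization and without any 1 sample. It was 8 with the mean of all probe sets (4315 of all genes), 6 when all 6 samples had to lie above the array median (4421), and 3 when the median had to be at least 2 times it (3453). The count of these genes with a range over 1 was 1 as reported (Hoxb6), and also 1 with no scaling, quantile normalization and the mean of probe sets. That count was 0 when lower values were raised to the array median, 0 with either stricter filter, and 0 to 1 when samples were left out, with 0 only without sample 3. The median range of the genes above the array median was 0.34 with the filter at 2 times the array median, 0.37 to 0.52 when samples were left out, and between 0.39 and 0.58 with the other alternatives. The stricter filters and the left-out sample hold fewer genes or arrays by construction. Of the 16 genes that the naming rule gives per sample, all 16 kept their highest sample with no scaling and with quantile normalization, and 14 and 16 kept their lowest. With the mean of probe sets, 2 of the 6 genes with several kept the highest sample. Precision is limited by signals near the array median, which are not shown to be above background.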
